A study of Mus musculus with 6 samples.

Results

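The sirtuins are enzymes that remove acetyl and other acyl groups from proteins and consume nicotinamide adenine dinucleotide (NAD) in doing so, and the salvage genes rebuild NAD from the nicotinamide that is released. The set described here holds the 7 sirtuin genes Sirt1 to Sirt7, the rate-limiting salvage enzyme Nampt, and Nmnat1 and Nmnat3, which make NAD from nicotinamide mononucleotide. Members were chosen by gene symbol. All 10 had a row in the deposited table, 1 each, among 23185 rows with a symbol. The arrays came from irisin knockout mice (3 arrays) and wild type littermates (3 arrays), all of the FVB strain and all fed standard chow with 10% fat for 24 weeks. Irisin is a hormone cleaved from the product of Fndc5, and the knockout line was made by injecting zygotes with Cas9 mRNA and 5 guide RNAs. Neither age nor sex is stated in the labels, nor which part of Fndc5 was removed. The labels call the material both cardiomyocytes and myocardium. They do not state that the arrays of a group are separate animals, so p-values may measure technical spread only. Values are log2 units of RMA, a summary over the probes of a gene, and each difference is irisin knockout minus wild type.

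In heart muscle, NAD carries electrons from fuel oxidation to the respiratory chain and is also split by sirtuins and poly-ADP-ribose polymerases, so its pool depends on constant salvage. NAMPT joins nicotinamide to a ribose phosphate to give nicotinamide mononucleotide, and the NMNAT enzymes add the adenylate part. NMNAT1 is nuclear and NMNAT3 is mitochondrial. SIRT1, SIRT6 and SIRT7 are mainly nuclear, SIRT2 is mainly cytosolic, and SIRT3, SIRT4 and SIRT5 are mitochondrial.

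The 3 members that rose in the knockout were Nmnat1, Nampt and Sirt2. Short stretches of genomic sequence next to their start sites are shown. Sirt2 and Nmnat1 each lie beside a neighbouring gene that is read in the opposite direction, whereas the nearest gene with a row lies 100486 bases from Nampt. Such a neighbour is not particular to the members that rose. Psmd13 lies 85 bases from Sirt3 and Ankrd24 lies 29 bases from Sirt6, each read in the opposite direction to the member. All stretches shown are from RefSeq, build GRCm38.p6, 5′ to 3′ on the strand of the named member. Capitals in the Nampt sequence mark GC boxes (GGGCGG on either strand), and the other sequences have no capitals because none of the 7 motifs searched was found in them.
Nampt, 250 bases before the start, chr12:32820085-32820334, plus strand: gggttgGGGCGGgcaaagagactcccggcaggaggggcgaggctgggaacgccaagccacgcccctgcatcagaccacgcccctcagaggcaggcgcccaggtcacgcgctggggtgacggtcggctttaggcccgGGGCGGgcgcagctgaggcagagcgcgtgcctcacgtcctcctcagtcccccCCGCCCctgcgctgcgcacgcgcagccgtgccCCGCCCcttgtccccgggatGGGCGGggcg
Sirt2, the 107 bases between the annotated spans of Nfkbib and Sirt2, chr7:28766645-28766751, plus strand: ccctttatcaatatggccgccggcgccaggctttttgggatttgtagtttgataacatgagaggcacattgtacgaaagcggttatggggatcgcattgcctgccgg
Nmnat1, the 18 bases between the nearest listed starts of Nmnat1 and Lzic, chr4:149485211-149485228, minus strand: ggattcgcgcacttccgg

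The targeted gene Fndc5 was lower on average in the arrays labelled knockout. It read 7.68, 5.49 and 5.45 in knockout replicates 1, 2 and 3, against 8.42, 8.40 and 7.83 in wild type replicates 1, 2 and 3. Knockout replicate 1 was therefore close to the wild type arrays, although the groups did not overlap. The difference was -2.01 (SE 0.54) with a limma adjusted p of 0.0359, and leaving out any 1 array other than knockout replicate 1 ended the call, with adjusted p from 0.0617 to 0.133. The two-sided exact permutation test gave p = 0.1, the smallest that 3 arrays against 3 allow.

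**Figure D1:**
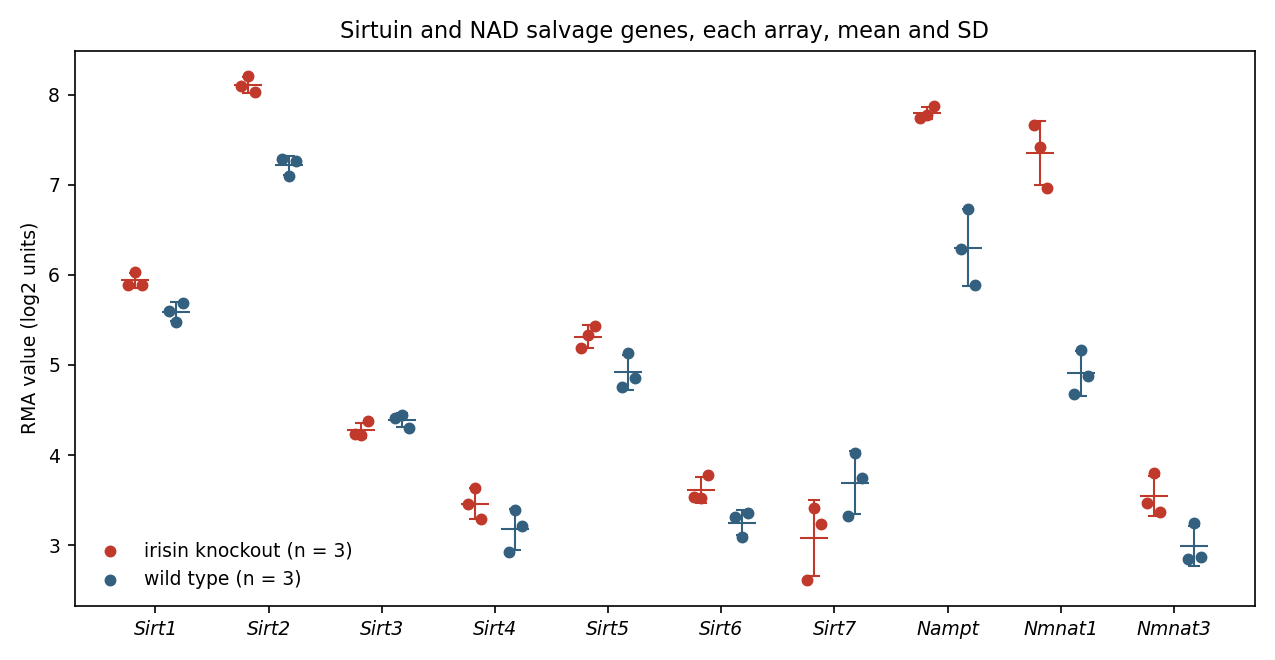
Log2 RMA value (vertical axis) of the 10 members on each of 6 arrays, with knockout arrays left of wild type arrays for each gene. Points are arrays, and the horizontal marks and bars are the mean and SD of 3 arrays. Nmnat1, Nampt and Sirt2 show wide gaps between the groups, whereas Sirt3, Sirt4 and Sirt7 overlap.

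Of the 10 members, 3 rose, 0 fell and 7 did not pass the adjusted threshold of 0.05 (limma, Benjamini-Hochberg adjustment over all 23185 genes). Among all genes tested, 16.6% passed, 10.4% higher and 6.18% lower (2416 and 1432 genes). After centring each array on its median the split was 3090 higher and 1008 lower, and after quantile normalization it was 1886 higher and 1528 lower. The array medians did not overlap between the groups, at 2.13 to 2.16 on knockout arrays and 2.23 to 2.28 on wild type arrays. The median difference was 0.38 over the members, against -0.05 over all genes. The 3 knockout arrays lay wholly above the 3 wild type arrays for 7 members, against 17.2% of all genes, and the groups overlapped for 3. None of the members lay wholly below, against 17.0% of all genes, and 34.1% of all genes did not overlap in either direction. With no adjustment, 8 members had a limma p under 0.05. All 10 lay in the brighter 50% of genes by mean level, where calls were more frequent: of 10 bands of equal size by level, 34.6% of genes rose in the brightest, which holds Sirt2, Nampt and Nmnat1, and 13.4% in band 7, which holds Nmnat3, Sirt4, Sirt6 and Sirt7. Levels were means over all 6 arrays, knockout included, so a rise itself moves a gene toward a brighter band. Nmnat1 averaged 4.91 on wild type arrays, close to the 4.92 of Sirt5 in band 9. The shares of members are not read as particular to the set.

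**Figure D2:**
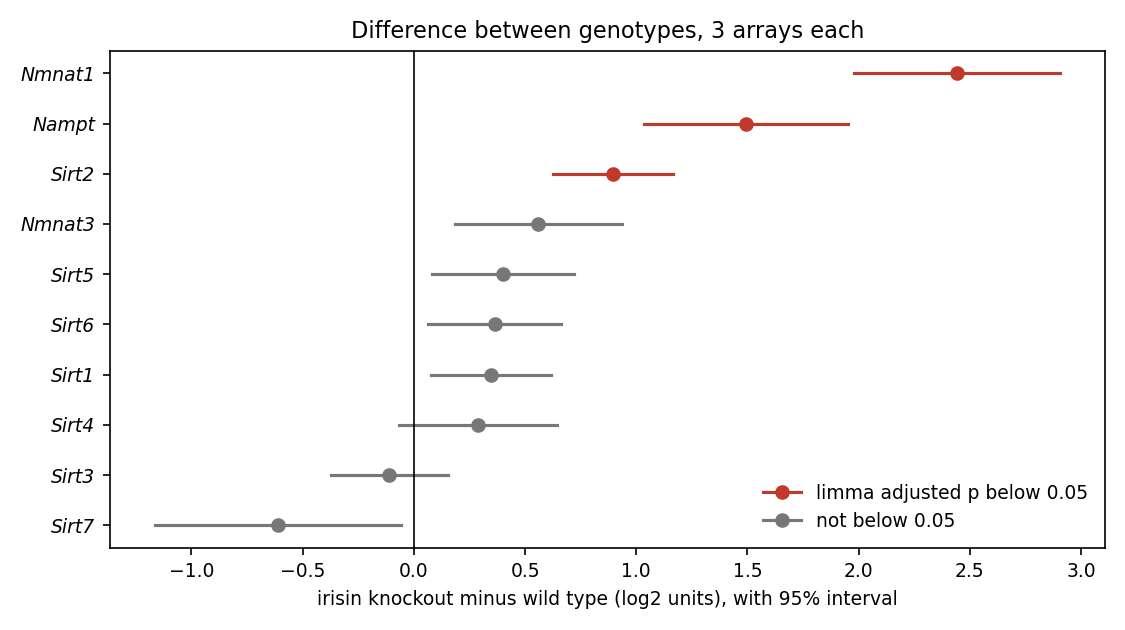
Difference between irisin knockout and wild type in log2 units (horizontal axis) for each member, with the 95% interval of the limma fit, 3 arrays per group. Intervals of Nmnat1 (1.98 to 2.90), Nampt (1.03 to 1.95) and Sirt2 (0.63 to 1.17) belong to the 3 genes past the adjusted threshold, drawn in red.

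Nmnat1, the nuclear enzyme of the last salvage step, showed the largest difference among the members. It read 7.67, 7.42 and 6.96 in knockout replicates 1, 2 and 3, against 4.68, 5.17 and 4.88 in wild type replicates 1, 2 and 3. The lowest knockout array was more than 1 log2 unit above the highest wild type array. Knockout arrays averaged 7.35 ± 0.36 and wild type arrays 4.91 ± 0.25 (SD, n = 3 each). The difference of 2.44 (SE 0.20) is 5.43-fold, with a limma adjusted p of 0.000384. In 16 alternative fits the difference lay between 2.17 and 2.63 and passed in every one, with adjusted p up to 0.00442.

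Nmnat1 shares its start region with Lzic. The genes run in opposite directions, and the 18 bases shown for Nmnat1 lie between the nearest starts that the promoter table lists for them. In the gene table, which also counts other transcripts, their spans overlap by 26 bases. Lzic moved by a similar amount, at 7.17, 7.13 and 6.74 in knockout replicates 1, 2 and 3, against 4.55, 4.96 and 4.43 in wild type replicates 1, 2 and 3. Its difference was 2.37 (SE 0.18, 5.16-fold, limma adjusted p = 0.000276). Whether the probes of either row also read RNA of the other gene was not tested, since probe positions were not used here. Rbp7, the nearest gene on the other side of Nmnat1 and a retinol-binding protein, was lower instead, at 4.79, 4.44 and 4.79 in the knockout arrays, against 5.54, 6.05 and 5.84 in the wild type arrays (difference -1.14, SE 0.17, limma adjusted p = 0.00314).

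Nampt, the enzyme that sets the pace of salvage, rose 2.82-fold. It read 7.74, 7.78 and 7.87 in knockout replicates 1, 2 and 3, against 6.29, 6.73 and 5.88 in wild type replicates 1, 2 and 3. The knockout arrays lay within 0.13 of each other, whereas the wild type arrays spanned 0.85. Knockout arrays averaged 7.80 ± 0.07 and wild type arrays 6.30 ± 0.43 (SD, n = 3 each), a difference of 1.49 (SE 0.20, limma adjusted p = 0.00225). It passed in all 16 alternative fits, with differences from 1.28 to 1.71 and adjusted p up to 0.0195. Wild type replicate 3, the lowest array, carried part of the size: the difference was 1.28 without it and 1.71 without wild type replicate 2, the highest wild type array.

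Nmnat3, the mitochondrial counterpart of Nmnat1, read 3.47, 3.80 and 3.37 in knockout replicates 1, 2 and 3, against 2.85, 3.24 and 2.87 in wild type replicates 1, 2 and 3. The groups did not overlap, but the gap between the lowest knockout and the highest wild type array was narrow. The difference of 0.56 (SE 0.16, 95% interval 0.18 to 0.93) just missed the threshold, with a limma adjusted p of 0.0510. It passed in 6 of 16 alternative fits, among them both scalings (0.0465 after quantile normalization and 0.0276 after median centring) and the fit without wild type replicate 2 (0.0260). Without knockout replicate 2 the adjusted p was 0.175.

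The salvage genes were also set against each other within each array, which compares how far their array values changed. Nmnat3 was the dimmest of them, with a wild type mean of 2.99, against 4.91 for Nmnat1 and 6.30 for Nampt. Whether equal changes of RNA give equal changes of array value at these levels was not tested. Nor was it tested whether the Nmnat1 row also reads RNA of Lzic. Nmnat3 minus Nmnat1 was -4.20, -3.62 and -3.60 in knockout replicates 1, 2 and 3, against -1.83, -1.93 and -2.01 in wild type replicates 1, 2 and 3. The array value of the mitochondrial gene thus stood 1.88 log2 units lower relative to that of the nuclear one in the knockout. Nampt minus Nmnat1 changed by -0.95 and Nampt minus Nmnat3 by 0.93, again with no overlap between the groups. Each of the 9 such pairs compared among members had a two-sided exact permutation p of 0.1 (0.1 after Benjamini-Hochberg adjustment), the smallest that 3 arrays against 3 allow, so none could pass. Directions of all 9 were kept after quantile normalization and without any 1 array. The pairs were chosen with earlier results of these data known, and their directions follow from the order of the single-gene differences.

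Among the sirtuins, 1 of 7 rose and 0 fell, with a median difference of 0.35. Over all genes 10.4% rose and 6.18% fell, so this count is not read as particular to the sirtuins. Sirt2, a mainly cytosolic deacetylase first known for acting on tubulin, was the one that passed. It read 8.10, 8.21 and 8.03 in knockout replicates 1, 2 and 3, against 7.28, 7.09 and 7.27 in wild type replicates 1, 2 and 3. Both groups were tight, spanning 0.18 log2 units in the knockout and 0.19 in wild type, and they were far apart. Knockout arrays averaged 8.11 ± 0.09 and wild type arrays 7.22 ± 0.11 (SD, n = 3 each). The difference of 0.90 (SE 0.12) is 1.86-fold, with a limma adjusted p of 0.00206. All 16 alternative fits passed, with differences from 0.65 after quantile normalization to 1.00 after median centring and adjusted p up to 0.0165.

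Nfkbib, an inhibitor of the NF-kappaB transcription factor that starts on the other side of the 107 bases shown for Sirt2, also rose. It read 5.81, 5.56 and 5.45 in knockout replicates 1, 2 and 3, against 5.03, 5.10 and 5.14 in wild type replicates 1, 2 and 3, a difference of 0.51 (SE 0.13, limma adjusted p = 0.0290). Rinl, which lies on the far side of Sirt2, differed by -0.09 (limma adjusted p = 0.858). Taking the nearest protein-coding gene with a row on each side of every member, a rule set after the values were seen, gave 20 neighbours. Of these 5 rose and 3 fell, against 10.4% and 6.18% of all genes. The share that rose depended on level, up to 34.6% in the brightest of the 10 bands, and the neighbours were not matched for level. Their count is not read as particular to them. The others that rose were Sypl beside Nampt (0.67), Nol7 beside Sirt5 (1.24) and Dnajc12 beside Sirt1 (0.73). Those that fell were Rbp7, Ric8a beside Sirt3 (-0.50) and Pxn beside Sirt4 (-0.48). Psmd13 beside Sirt3 and Ankrd24 beside Sirt6 start close to a member that did not pass and run in the opposite direction. They differed by -0.17 and -0.01 (limma adjusted p = 0.474 and 0.979).

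Sirt1, Sirt6 and Sirt7 encode the nuclear sirtuins, and none of them passed. Sirt1, which deacetylates transcription factors and coactivators, read 5.89, 6.03 and 5.89 in knockout replicates 1, 2 and 3, against 5.60, 5.48 and 5.69 in wild type replicates 1, 2 and 3 (difference 0.35, SE 0.12, limma adjusted p = 0.0833). Sirt6, a chromatin deacetylase, read 3.54, 3.53 and 3.78 in the knockout arrays, against 3.31, 3.09 and 3.35 in the wild type arrays (0.36, SE 0.13, limma adjusted p = 0.101). For both genes every knockout array was above every wild type array, by a small margin. Sirt7, a nucleolar deacetylase, had the lowest difference of the members. It read 2.61, 3.41 and 3.23 in knockout replicates 1, 2 and 3, against 3.32, 4.02 and 3.75 in wild type replicates 1, 2 and 3. The groups overlapped, with knockout replicate 1 lowest of all. The difference was -0.61 (SE 0.24, 95% interval -1.16 to -0.06, limma adjusted p = 0.132), and it was -0.37 without knockout replicate 1 and -0.80 without wild type replicate 1.

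The mitochondrial sirtuins did not pass either. Sirt3, the main mitochondrial deacetylase, read 4.23, 4.23 and 4.37 in knockout replicates 1, 2 and 3, against 4.42, 4.45 and 4.30 in wild type replicates 1, 2 and 3. Its groups overlapped, and its 95% interval of -0.37 to 0.15 around -0.11 was the narrowest among the 10 members (limma adjusted p = 0.592). Sirt4 read 3.46, 3.63 and 3.30 in the knockout arrays, against 2.93, 3.39 and 3.21 in the wild type arrays (0.29, SE 0.15, limma adjusted p = 0.265). It encodes a mitochondrial ADP-ribosyltransferase and lipoamidase. Sirt5, which removes succinyl and malonyl groups, read 5.18, 5.33 and 5.43 in the knockout arrays, against 4.75, 5.14 and 4.86 in the wild type arrays, with no overlap (0.40, SE 0.14, limma adjusted p = 0.0921). Sirt5 passed without wild type replicate 2 (0.0435). Relative to each of the other sirtuins within the same array, Sirt2 stood higher in all 3 knockout arrays than in all 3 wild type arrays, by 0.50 against Sirt5 up to 1.51 against Sirt7. The exact permutation test of these ratios could not go below 0.1. Sirt2 had the largest difference of the sirtuins, so the direction of each mean ratio follows from the values above and adds no support.

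Scaling changed how many members passed. After centring each array on its median, 7 members rose, adding Sirt1 (limma adjusted p = 0.0314), Sirt5 (0.0448), Sirt6 (0.0419) and Nmnat3. After quantile normalization 4 rose, adding Nmnat3 only. Without wild type replicate 2 the number was 5, with Nmnat3 and Sirt5 added. The same 3 genes, Nmnat1, Nampt and Sirt2, passed in every alternative fit that was run.

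**Figure D3:**
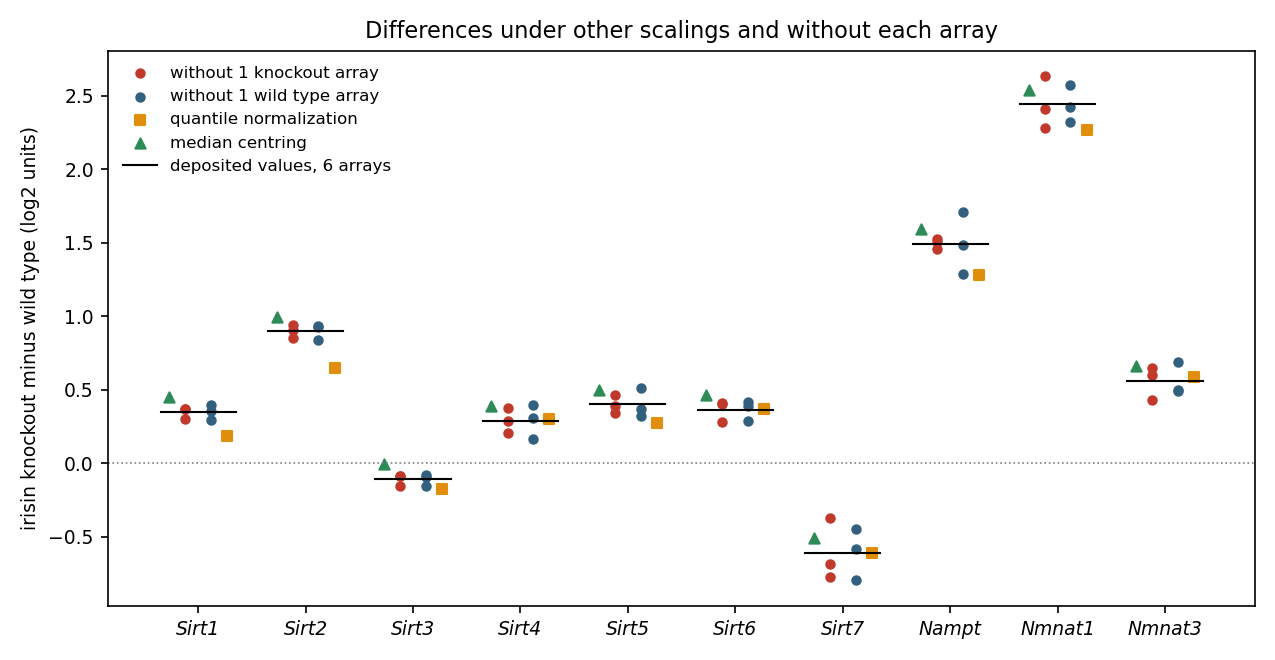
Difference between irisin knockout and wild type in log2 units (vertical axis) for each member under other settings. The black line is the fit of all 6 deposited arrays, red and blue points leave out 1 knockout or 1 wild type array, green triangles centre each array on its median and orange squares use quantile normalization. Nmnat1, Nampt and Sirt2 stay at or above 0.65 in the settings drawn, and Sirt3 lies between -0.17 and -0.01.

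Promoter letters of the members are given as a description. RefSeq listed 13 start windows for the 10 members, each taken here as the 250 bases before the start. A GC box, GGGCGG on either strand, was found in 10 of the 13 member windows, which belong to 9 of the 10 members, and in 32.7% of all 32851 windows. Nampt held 5 of them and was 75.6% G and C, against a median of 52.4% over all windows. Member windows ran from 45.6% (Nmnat3) to 79.2% (Sirt1) G and C, and GGGCGG holds only these letters. The share over all windows was not matched for G and C content, so the GC box is not read as particular to the members. CCAAT on either strand was found for Sirt2, Sirt3, Sirt5 and Nmnat1, and in 33.8% of all windows. The E-box CACGTG, the letters bound by clock factors, was found only before Sirt1 (2 copies), and in 6.02% of all windows. AAGGTCA, part of the site of oestrogen-related receptors, was found before Sirt5 and in 4.08% of all windows, and the NRF1 palindrome before Sirt6 and in 0.782%. The letters TGACGTCA and TGTTTAC, searched on both strands, were not in any member window and were in 1.55% and 3.17% of all windows. These are matches of letters, and they do not show binding.

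Of 22 other genes of NAD synthesis measured, 2 rose, 1 fell and 19 did not pass, with a median of -0.08. That share is near the 16.6% of all genes that passed. However, 7 of the 22 were below 2 log2 units on every array, under the array medians of 2.13 to 2.28. In band 5 of the 10 by level 2.03% of genes rose and 4.44% fell, and fewer in dimmer bands. Genes this dim are not shown to be unchanged. Nadk2, the mitochondrial kinase that turns NAD into NADP, read 6.62, 6.66 and 6.58 in knockout replicates 1, 2 and 3, against 5.52, 6.02 and 5.45 in wild type replicates 1, 2 and 3 (difference 0.96, SE 0.16, limma adjusted p = 0.00585). Nmrk1, a nicotinamide riboside kinase, was dim but its groups did not overlap. Its mean was 2.59 ± 0.22 on knockout arrays and 1.72 ± 0.20 on wild type arrays (SD, n = 3 each; difference 0.88, SE 0.16, limma adjusted p = 0.00732). Slc22a13, a urate and nicotinate transporter, fell by 0.65 (limma adjusted p = 0.0388), a call that ended without any 1 array other than wild type replicate 1 (up to 0.110). Nmrk2, the muscle form of the riboside kinase, read 3.94, 3.42 and 3.57 in the knockout arrays, against 5.25, 3.94 and 4.18 in the wild type arrays (-0.82, SE 0.32, limma adjusted p = 0.124). Knockout replicate 1 and wild type replicate 2 stood at the same level, 3.94.

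Enzymes that use or split NAD, other than sirtuins, had 4 higher and 1 lower of 25 measured (median 0.07), against 10.4% higher and 6.18% lower over all genes. After quantile normalization 2 were higher and 3 lower. Nudt12, which hydrolyses NADH and NAD caps, showed the largest difference in this list, at 6.41, 6.18 and 5.46 in knockout replicates 1, 2 and 3, against 3.16, 3.78 and 3.33 in wild type replicates 1, 2 and 3. Every knockout array was well above the wild type arrays, a 6.03-fold difference (2.59, SE 0.26, limma adjusted p = 0.000694). Nudt7, a peroxisomal hydrolase of the same family that acts mainly on coenzyme A, rose 2.98-fold (limma adjusted p = 0.000563). The ADP-ribosyltransferase gene Parp3 rose by 0.64 (limma adjusted p = 0.0410) and Parp6 fell by 0.62 (0.0125). Nudt13, a mitochondrial NADH hydrolase, rose by 0.46 (0.0252). The other 20 genes of the list did not pass. The call of Nudt13 ended without any 1 array other than knockout replicate 3 (up to 0.0968), and that of Parp3 without knockout replicate 1 or 2 or wild type replicate 1 or 3 (up to 0.150). The number higher was 2 without knockout replicate 1 or 2 or wild type replicate 1 or 3, and the Parp6 call ended without knockout replicate 2 (0.0545). In the list of nicotinamide methylation and breakdown, 1 of 5 measured genes rose (Aox1, 0.64) and 2 fell (Cyp2e1, -0.72, and Ahcy, -0.70), against 10.4% and 6.18% of all genes. Ahcy was dim, with means of 1.31 on knockout arrays and 2.01 on wild type arrays, below the array medians. The Aox1 call ended without knockout replicate 1 or 3 (up to 0.0948) and the Cyp2e1 call without knockout replicate 2 or 3 (up to 0.0822). That of Ahcy ended without any 1 array other than wild type replicate 3 (up to 0.141).

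Genes that move the electrons of NADH between cytosol and mitochondria, with the transhydrogenase Nnt, rose for 6 of 12, and 0 fell (median 0.56). Over all genes 10.4% rose, and 34.6% in the brightest of the 10 bands by level. Slc25a12, the aspartate-glutamate carrier of the malate-aspartate shuttle, rose 4.21-fold (limma adjusted p = 0.000211). It read 9.70, 9.62 and 9.34 in knockout replicates 1, 2 and 3, against 7.64, 7.50 and 7.31 in wild type replicates 1, 2 and 3. Its partner carriers Slc25a11 and Slc25a13 rose by 1.17 and 1.28, and the aminotransferases Got2 and Got1 by 0.90 and 0.67. Nnt, which links NADH to NADPH across the inner mitochondrial membrane, read 10.04, 10.35 and 10.28 in knockout replicates 1, 2 and 3, against 8.76, 9.25 and 8.83 in wild type replicates 1, 2 and 3 (1.28, SE 0.16, limma adjusted p = 0.00176). The 6 genes also passed without any 1 array. Got1 lost its call after quantile normalization (0.0892).

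**Figure D4:**
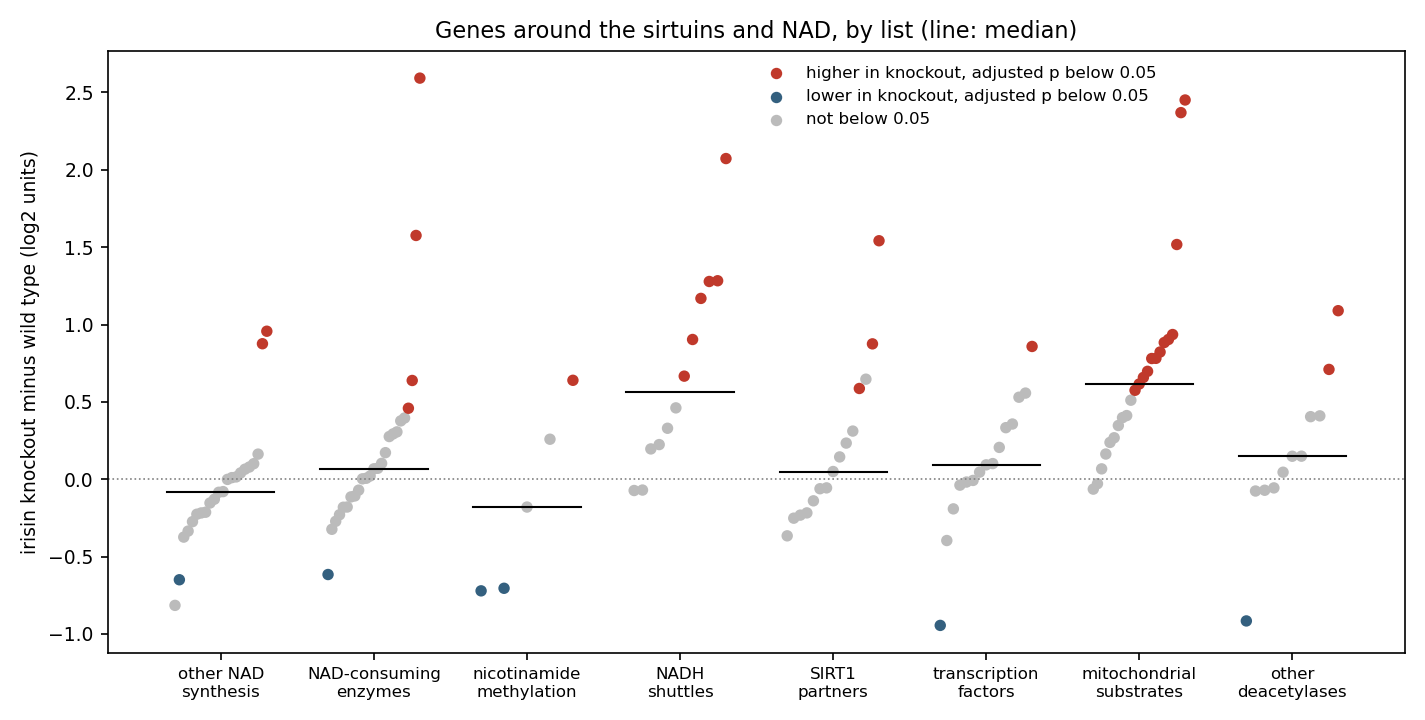
Difference between irisin knockout and wild type in log2 units (vertical axis) for every measured gene of 8 lists around sirtuins and NAD, with the list median as a line. Red points rose, blue points fell and grey points did not pass. The medians lie at 0.56 for the NADH shuttle list and 0.62 for the mitochondrial substrates, and between -0.18 and 0.15 for the other 6 lists.

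Mitochondrial enzymes known to be deacylated by SIRT3, SIRT4 or SIRT5 rose for 13 of 23 measured, with 0 falling and 10 not passing, and a median of 0.62. Without any 1 array the number was 12 to 15. Acss1, the mitochondrial acetyl-CoA synthetase, rose 5.47-fold (mean 10.01 on knockout arrays and 7.56 on wild type arrays), and Ppif, which encodes cyclophilin D of the permeability transition pore, rose 5.17-fold (mean 10.15 on knockout arrays and 7.78 on wild type arrays). Aldh2, Hadha, Cs and Got2 rose by 1.52, 0.94, 0.88 and 0.90. Got2 is also in the shuttle list. These genes are mostly bright, and 34.6% of genes in the brightest of the 10 bands rose. The list names enzymes by what sirtuins do to the proteins, and the arrays do not measure acetylation.

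Of 15 transcription factors and coregulators measured, Mef2d rose by 0.86 (limma adjusted p = 0.00585) and Per2, a clock repressor, fell by 0.94 (0.00236), while 13 did not pass. The number higher was 2 without knockout replicate 3 or wild type replicate 1. Ppargc1a, the coactivator PGC-1alpha, read 8.38, 8.15 and 8.38 in the knockout arrays, against 8.61, 8.81 and 8.68 in the wild type arrays, wholly lower but not past the threshold (-0.40, SE 0.12, limma adjusted p = 0.0657). Among 15 partners and regulators of SIRT1, Prkaa2, Dyrk1a and Mapk8 rose and 0 fell. Prkaa2, a catalytic subunit of AMP-activated kinase, read 9.29, 9.29 and 9.04 in knockout replicates 1, 2 and 3, against 7.83, 7.68 and 7.48 in wild type replicates 1, 2 and 3. Mapk8 (0.59) lost its call without any 1 knockout array, with adjusted p up to 0.0619. Among 11 other deacetylases Hdac9 rose by 1.09, Hdac11 by 0.71 and Hdac7 fell by 0.92. Hdac11 lost its call without any 1 knockout array (up to 0.0677), which left 1 gene higher. Over all genes 10.4% rose and 6.18% fell, and 34.6% rose in the brightest of the 10 bands by level. The counts of these lists are not read as particular to them.

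Some markers of other cell types moved with genotype alongside these results, and over all genes 10.4% rose and 6.18% fell. Fibroblast markers fell for 6 of 10, with a summed linear level between 1731 and 1846 in the knockout, against 2102 to 3407 in wild type. The collagen genes Col3a1, Col1a1 and Col1a2 fell by 2.85, 2.50 and 2.05. Of the 4 that did not pass, Tcf21 and Dcn differed by 0.10 and -0.01, and Lum and Pcolce by -0.33 and -0.64. Endothelial markers fell for 4 of 10 (1976 to 2280 on knockout arrays and 2546 to 3082 on wild type arrays), or 2 of 10 without knockout replicate 1 or 2. Among them Vwf, which encodes von Willebrand factor, fell by 1.89. Of the 6 endothelial markers that did not pass, Cdh5 differed by 0.17, Kdr by -0.19 and Tie1 by -0.47. Smooth muscle and pericyte markers rose for 3 and fell for 4 of 10, with 1 or 2 falling without any 1 knockout array. Among those with the lowest p, Rgs5 and Kcnj8 rose by 1.23 and 1.48, and Acta2, the smooth muscle actin, fell by 2.16. Tagln, Myh11 and Cnn1 fell by 2.83, 2.35 and 3.04, and Abcc9 rose by 1.01. The calls of Myh11, Cnn1 and Abcc9 ended without any 1 knockout array, and that of Tagln without knockout replicate 2. Notch3 and Pdgfrb, also mural cell markers, differed by -0.65 and 0.05 and did not pass. Macrophage markers fell for 2 of 9, or 1 without knockout replicate 1 or 3 or wild type replicate 1 or 2, at 240.2 to 249.4 on knockout arrays and 276.9 to 281.9 on wild type arrays. Of the 7 that did not pass, Cd68 was wholly higher on knockout arrays (0.39) and C1qa wholly lower (-0.52). Cardiomyocyte markers, which define the labelled cell type, were bright throughout (28560 to 29650 on knockout arrays and 25540 to 30110 on wild type arrays), and of 12 only Pln rose, a call that ended without any 1 knockout array. Without knockout replicate 3 or wild type replicate 1, 1 cardiomyocyte marker fell. Lymphocyte markers rose for 1 of 9, Cd4 (0.77), which was dim, with means of 2.37 on knockout arrays and 1.60 on wild type arrays. Adipocyte (6 measured) and erythroid (3 measured) markers had 0 past the threshold in limma, but 2 adipocyte markers fell without wild type replicate 2 and 1 erythroid marker without wild type replicate 1. Wild type replicate 2 stood apart: its summed erythroid level was 188.4, against 32.26 and 31.71 on wild type replicates 1 and 3, and its fibroblast level of 2102 was the lowest of the wild type arrays. Without that array 5 members rose. Among these marker lists only those of lymphocytes and adipocytes had a marker below 2 log2 units on every array, namely Cd8a, Ms4a1, Adipoq and Lep. The part of cell makeup in the results for the members was not tested, and in bulk RNA fewer cells of a type and less RNA per cell cannot be told apart.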

How the data were processed

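Total RNA was hybridised to 1 Affymetrix array per sample, 3 irisin knockout and 3 wild type. The deposited values are log2 RMA summaries and the authors used affy 1.61.0 under R 3.6.0, as the submitters' processing notes name them. The log2 scale was inferred from their range, while no source used here names the probe positions or the build. Array medians ran from 2.13 to 2.28, so the columns do not share 1 distribution. Precision is limited by the number of arrays.

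Of 25206 rows, 23185 had 1 symbol, 0 several and 2021 none, and the last were not tested in the main analysis. Genotype was tested with limma 3.58.1 (lmFit and eBayes, two-sided, R 4.3.3), adjusted by Benjamini-Hochberg over all 23185 genes, with no filter on dim genes. Intervals are at 95%. Members, gene lists and tests were chosen with earlier results of these data known. Named are Fndc5, all members, and from each NAD or sirtuin list at most 6 genes that passed, ranked by p (2 if none passed). Nmrk2 and Ppargc1a were named after their values were seen, as were the neighbouring genes, and the promoter motifs were chosen after values were seen. RefSeq tables of GRCm38.p6 served for neighbours and sequences, and all 10 members matched by gene ID.

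On simulated data for knockout minus wild type (23185 genes) limma found 4 of 67 genes shifted by 0.5 log2 units, 36 of 67 shifted by 1, and 62 of 66 shifted by 2. It also called 7 unshifted genes. Far fewer genes were shifted than the 3848 that passed in the data, so the adjusted threshold was stricter in the simulation. These recoveries are therefore not those of the main analysis. Alternatives were quantile normalization, median centring, a fit without the dimmest 30% or 50% of genes, a fit of all rows, a trended or a robust eBayes, weighted arrays, a block for replicate number, each array left out in turn, both arrays numbered 1 left out, and a threshold of 0.1.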

Additional observations from a re-analysis of the deposited data

How the results depend on the processing

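Nmnat1, Nampt and Sirt2 passed in all 16 alternative fits, and no member changed sign in any of them. Members that rose numbered 3 in the main analysis, 7 after median centring, 6 at a threshold of 0.1 and 3 to 5 without any 1 array. Replicate numbers did not pair the samples: deviations of same-numbered arrays correlated at 0.090, 0.048 and 0.070. With the replicate number as a block, 1 member fell (Sirt7, adjusted p = 0.0206) and Nmnat3 rose (0.0266). Over all genes, against 2416 that rose and 1432 that fell, 1403 to 2570 rose and 701 to 1593 fell without any 1 array. The lowest numbers came without knockout replicate 2 (1403 and 701), then replicate 1 (1534 and 740), and 826 fell without replicate 3. The number that fell was 938 without both arrays numbered 1 and 2212 at a threshold of 0.1. Fndc5 differed by -2.75 to -1.63 without any 1 array and by -2.01 with a robust variance model, where its call ended (adjusted p = 0.0635).

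Several medians changed sign. That of all genes turned to 0.055 after median centring and without the dimmest 50% of genes, and that of other NAD synthesis to 0.019 after median centring. After quantile normalization that of NAD-consuming enzymes was -0.034 and that of SIRT1 partners -0.027. Without any 1 array SIRT1 partners ran from -0.048 (without wild type replicate 3) to 0.11, cardiomyocyte markers from -0.13 to 0.042 and erythroid markers from -1.305 to 0.023, both highest without wild type replicate 2. The erythroid median of -0.90 thus rested on that array. Lymphocyte markers turned to -0.14 without the dimmest 50% of genes, and ran from -0.18 to 0.18 without any 1 array, below 0 without knockout replicate 2 or wild type replicate 1 or 3. The cause of these changes was not tested. With 3 arrays per group, changes of 0.5 log2 units were mostly missed on simulated data, where far fewer genes were shifted than passed in the data. That recovery is not the one of the main analysis, and members that did not pass are not shown to be unchanged.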
